A study of Homo sapiens with 4 samples.

Results

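The BCL2 family decides whether a cell's mitochondria stay intact or release cytochrome c, and 10 of its genes were followed in HEL cells depleted of AFF4. They were the rows of the count table carrying the symbols BCL2, BCL2L1, MCL1, BMF, BCL2L11, BBC3, PMAIP1, BID, BAX and BAK1, which is 10 of the 28103 symbols listed. All 10 passed the filter on low counts, as did 13572 genes in all. The 3 pro-survival genes are taken apart from the 7 pro-death genes, of which 5 are BH3-only genes and 2 are effectors.

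In this family the pro-survival proteins BCL2, BCL-XL (from BCL2L1) and MCL1 hold the effectors BAX and BAK in check. BH3-only proteins report damage or loss of growth signals: they occupy the groove of the survival proteins, and some also activate the effectors directly, which then form pores in the mitochondrial outer membrane. Cells of the erythroid lineage lean on BCL-XL as they mature, and MCL1, a protein with a very short life, is often studied where transcription elongation is inhibited.

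The libraries were made from poly(A) RNA of HEL, an established cell line from a human erythroleukaemia that keeps erythroid as well as megakaryocytic traits. The 4 libraries form 2 groups, HEL cells with AFF4 knocked down (AFF4_KD, 2 libraries) and HEL cells of wild-type genotype (Ctrl, 2 libraries), all grown in RPMI-1640 with serum and antibiotics. AFF4 is the scaffold of the super elongation complex, which frees RNA polymerase II from pausing near promoters. The sources used here do not give how or for how long AFF4 was depleted, what the Ctrl cells received, or whether replicates came from separate cultures; p-values therefore reflect the spread among 4 libraries, part or all of which may be technical.

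AFF4 had 338 and 319 counts in AFF4_KD 1 and 2, against 1650 and 1033 in Ctrl 1 and 2 (log2 fold change -2.07, SE 0.19; adjusted p = 0.0268 in edgeR), in the direction the labels give. Total counts lay between 16643610 and 17955867 in AFF4_KD and between 14903878 and 19129008 in Ctrl. All 12 erythroid and megakaryocytic markers checked were detected and tested, with GATA1 at 241 ± 12.7 CPM (counts scaled to a common library total) in AFF4_KD and 239 ± 84.1 CPM in Ctrl (mean ± SD, n = 2 each). Their levels were not all alike in the groups: 1 of the 12, the fetal globin gene HBG1, was called lower, with 42354 and 37754 counts in AFF4_KD and 73440 and 65682 in Ctrl (log2 fold change -0.86, edgeR adjusted p = 0.0394), though its reads can be shared with its near-identical copy HBG2 (-0.68, edgeR adjusted p = 0.0641). At an unadjusted p under 0.05 in edgeR, 4 of the 12 were lower, among them PF4 (-1.01), and 2 were higher, among them EPOR (0.76). Of all tested genes 8.19% were lower and 6.79% higher at this limit. Any part of the marker differences in the members' values was not tested. The T cell genes CD3D and CD3E and the fibroblast gene COL1A2 were at 0 counts in every library. Of 10 markers of other cell types, 3 passed the filter; the list summed to between 156 and 165 CPM in AFF4_KD and between 176 and 187 CPM in Ctrl, nearly all of it PECAM1, which megakaryocytic cells also express.

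The Ctrl libraries differed from each other along the GC content of transcripts, and this bears on the members to differing degrees. Over all tested genes, Ctrl 2 relative to Ctrl 1 had a median log2 difference of -0.40 in the fifth of genes poorest in GC and 0.68 in the fifth richest in GC, whereas AFF4_KD 2 relative to AFF4_KD 1 had -0.05 and 0.11. The 10 members followed the same line. BBC3, with 69.7% GC, was 0.86 higher in Ctrl 2 on the log2 scale and BAX, with 58.9%, was 0.72 higher, while PMAIP1, with 37.2%, differed by -0.35 and BCL2, with 45.6%, by -0.43. Across the 10 members Spearman's rho between GC content and this difference was 0.95, a description over genes that share the same 2 libraries. For this reason each member is given below in the plain fit and in a second fit in which a smooth trend of log-CPM on GC content was taken out of each library, called the GC correction. It brought the Ctrl difference of BCL2L1 from 0.42 to 0.016, left -0.25 for BCL2 and hardly moved that of BID (0.18 before, 0.17 after).

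**Figure D1:**
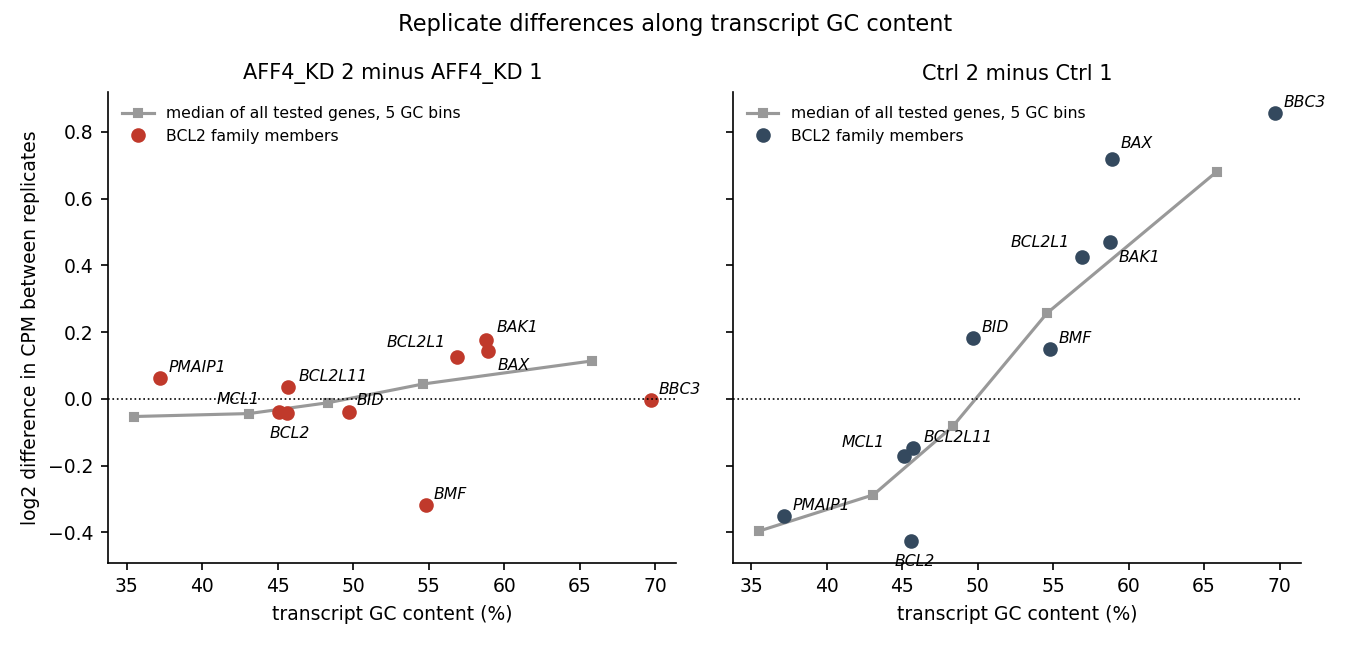
Log2 difference in CPM between the replicates of a group (vertical axis) against transcript GC content in percent (horizontal axis), for the 10 members (coloured points) and as medians of 5 equal-sized bins of all tested genes (grey squares). The left panel shows AFF4_KD 2 minus AFF4_KD 1 and the right panel Ctrl 2 minus Ctrl 1, where the members run from -0.43 for BCL2 to 0.86 for BBC3.

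In the plain fit 0 of the 10 members passed the edgeR quasi-likelihood test, adjusted over all 13572 tested genes (threshold 0.05). The background is low too: 0.295% of tested genes were called lower and 0.346% higher. Before adjustment, at a p under 0.05, the BH3-only genes BCL2L11, BMF and BBC3 were lower, which is 3 of 10 members against 8.19% of tested genes, and 0 members were higher, against 6.79%. With the same unadjusted limit DESeq2 had 2 members lower, against 4.59% of genes, and 0 higher, against 3.53%. Limma-voom had 3 lower, against 7.78%, and 0 higher, against 7.07%. After adjustment 0 members passed either tool, where DESeq2 called 1.63% of genes lower and 1.42% higher and limma-voom 0.287% and 0.391%. After the GC correction 6 members were called lower and 1 higher. In that fit 14.7% of all genes were called lower and 14.7% higher, and the members are read against those shares.

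The groups did not overlap in CPM for 6 members, all lower in AFF4_KD: BCL2, MCL1, BMF, BCL2L11, BBC3 and BID. Among all tested genes 23% lay lower in this way and 23.1% higher. In GC-corrected CPM no member's groups overlapped, with 7 lower and 3 higher, in a background of 32.6% lower and 34.5% higher.

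**Figure D2:**
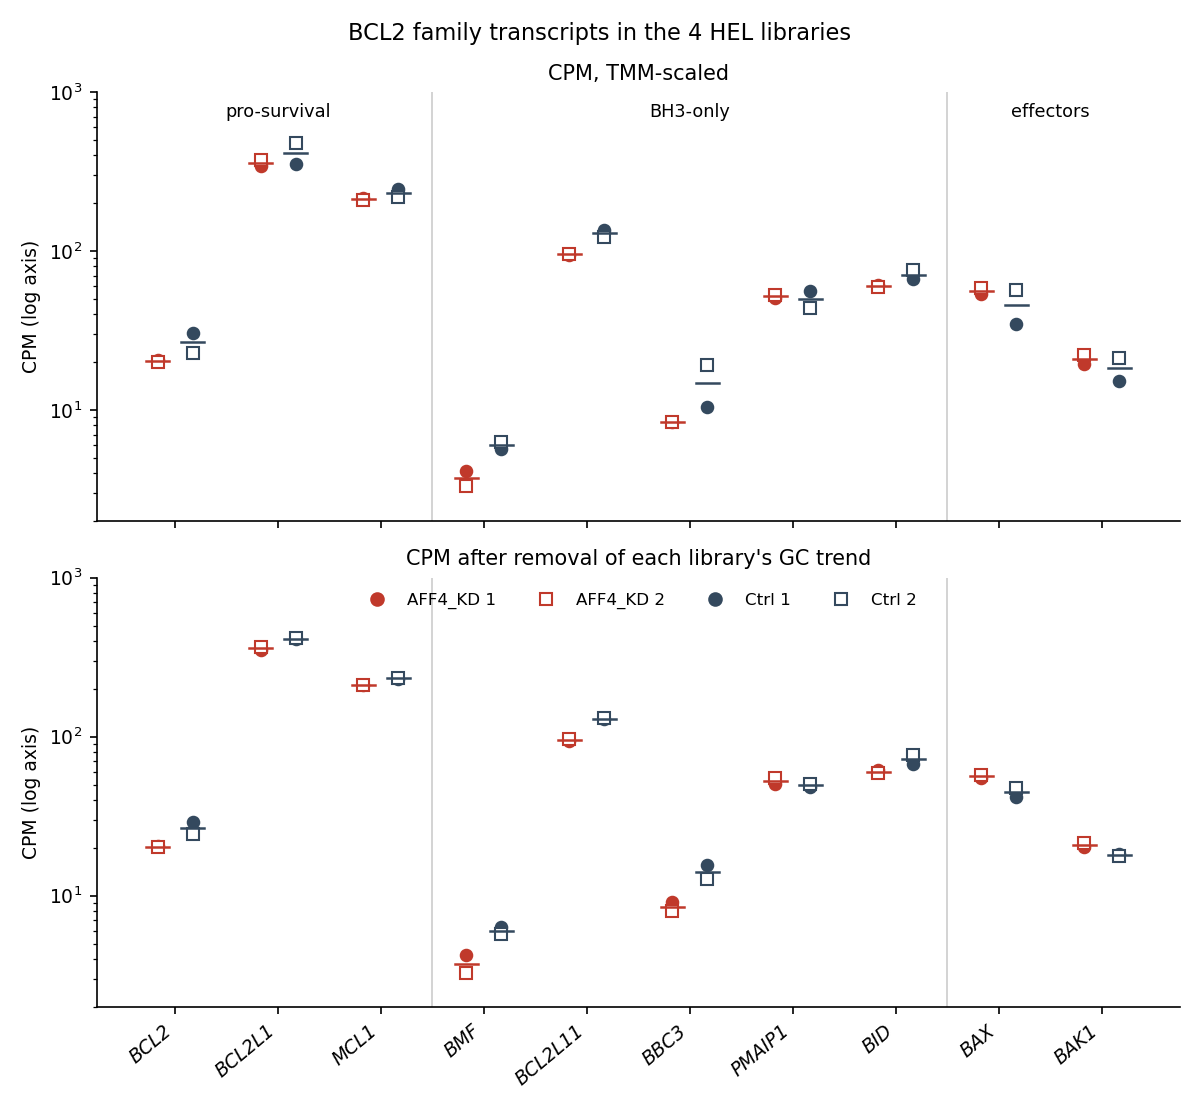
CPM of the 10 members in each library on a log axis, with TMM scaling (upper panel) and after the GC correction (lower panel); AFF4_KD libraries are red, Ctrl libraries are dark blue, circles are replicate 1, squares are replicate 2 and bars are group means of 2 libraries. BCL2L11 lies lower in both AFF4_KD libraries in both panels, while the spread between the Ctrl libraries of BCL2L1, BBC3 and BAX is smaller in the lower panel.

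Among the pro-survival genes, BCL2L1 was the most abundant. Its level was 344 and 375 CPM in AFF4_KD 1 and 2, against 355 and 477 CPM in Ctrl 1 and 2. The AFF4_KD libraries enclosed the lower Ctrl library, so the groups overlapped, and the log2 fold change was -0.21 (95% interval -0.61 to 0.19; edgeR adjusted p = 0.652). With the GC correction BCL2L1 had 353 and 367 CPM in AFF4_KD and 411 and 416 CPM in Ctrl, with the replicates of each group now close together. The log2 fold change of -0.20 was almost the same, with a narrower 95% interval of -0.32 to -0.08 (edgeR adjusted p = 0.0232). Without Ctrl 2 the plain log2 fold change was 0.015, whereas with the GC correction it stayed between -0.23 and -0.17 whichever library was left out. The GC-corrected call was lost without AFF4_KD 1 (edgeR adjusted p = 0.357) or AFF4_KD 2 (0.213).

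MCL1, which is lost within hours when its transcription stops, moved least in this subgroup. It was at 214 and 208 CPM in AFF4_KD and at 246 and 218 CPM in Ctrl. Both AFF4_KD libraries lay below both Ctrl libraries, by a log2 fold change of -0.14 (95% interval -0.46 to 0.19; edgeR adjusted p = 0.733). Without Ctrl 1 this was -0.046 and without Ctrl 2 it was -0.22. The GC correction gave 212 and 210 CPM in AFF4_KD against 231 and 235 CPM in Ctrl, a log2 fold change of -0.14 that did not pass (95% interval -0.26 to -0.028; edgeR adjusted p = 0.065). It passed only in the GC-corrected fits that left out Ctrl 1 (edgeR adjusted p = 0.0014) or Ctrl 2 (0.00386), where the spread comes from the AFF4_KD pair alone. With all 4 libraries, the intervals of both fits hold no fall of MCL1 RNA beyond -0.46 on the log2 scale. This limit is relative to the other genes, since scaled counts do not show a change common to all of them.

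BCL2 itself was scarce. It had 371 and 335 counts in AFF4_KD and 570 and 339 in Ctrl, or 20.5 and 19.9 CPM against 30.5 and 22.7 CPM. Both AFF4_KD libraries were lower, Ctrl 2 only a little above them, and the log2 fold change was -0.40 (95% interval -0.89 to 0.09; edgeR adjusted p = 0.438). Its size rests on the Ctrl libraries, at -0.16 without Ctrl 1 and -0.60 without Ctrl 2. It was called after the GC correction (-0.40, 95% interval -0.65 to -0.16; edgeR adjusted p = 0.026), but not without AFF4_KD 1 (edgeR adjusted p = 0.118) or AFF4_KD 2 (0.125), and its GC-corrected value was -0.26 without Ctrl 1. The median log2 fold change of the 3 pro-survival genes was -0.21, where that of all tested genes was -0.0089.

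The BH3-only gene BCL2L11 encodes BIM, which binds every pro-survival protein of the family and links loss of cytokine signals to death. It had 1701 and 1621 counts in AFF4_KD and 2531 and 1826 in Ctrl. In CPM this was 94 and 96.3 in AFF4_KD and 136 and 122 in Ctrl. Both AFF4_KD libraries were clearly below both Ctrl libraries, with a gap between the groups wider than either pair of replicates, and the log2 fold change was -0.44 (95% interval -0.78 to -0.10; unadjusted p = 0.019, edgeR adjusted p = 0.226). Once GC-corrected, the libraries stood at 93.3 and 97 CPM in AFF4_KD and at 129 and 131 CPM in Ctrl. The log2 fold change was then -0.45 (95% interval -0.57 to -0.32; edgeR adjusted p = 0.00139). BCL2L11 was the 1 member called in all 4 of the GC-corrected fits that each left out a library, with edgeR adjusted p of up to 0.0267 and log2 fold changes between -0.48 and -0.42.

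BMF encodes a BH3-only protein that, like BIM, is held on the cytoskeleton by dynein light chains until stress releases it. It was the scarcest member, with 75 and 56 counts in AFF4_KD and 106 and 94 in Ctrl. This is 4.15 and 3.33 CPM in AFF4_KD and 5.68 and 6.29 CPM in Ctrl, so the groups were apart. The log2 fold change was -0.67 (95% interval -1.22 to -0.13; unadjusted p = 0.0226, edgeR adjusted p = 0.244), and -0.68 after the GC correction (edgeR adjusted p = 0.0264), a call lost without AFF4_KD 2 (edgeR adjusted p = 0.186). Counting error alone is wide at this depth: the exact 95% Poisson interval of the 56 counts in AFF4_KD 2 is 42.3 to 72.7 and that of the 94 counts in Ctrl 2 is 76 to 115.

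BBC3 encodes PUMA, a strong BH3-only killer. It had the steepest fold change of the 10 members, and the least agreement between Ctrl libraries. It was at 8.4 and 8.37 CPM in AFF4_KD, against 10.5 and 19.1 CPM in Ctrl. Ctrl 1 was only slightly above the AFF4_KD libraries and Ctrl 2 far above them, and the log2 fold change of -0.81 had a 95% interval of -1.52 to -0.11 (unadjusted p = 0.0289, edgeR adjusted p = 0.27). Leaving out Ctrl 2 brought it to -0.33, and leaving out Ctrl 1 to -1.18. GC-corrected, BBC3 was at 9.08 and 7.99 CPM in AFF4_KD and 15.5 and 12.7 CPM in Ctrl, a log2 fold change of -0.71 (95% interval -1.04 to -0.38; edgeR adjusted p = 0.00937). Without AFF4_KD 2 this call was narrowly lost (edgeR adjusted p = 0.0522). In that scale Ctrl 1 is the higher of the Ctrl libraries. BBC3 has the highest GC content of the members, and the difference between its Ctrl libraries was 0.86 before the correction and -0.29 after it.

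Of the other BH3-only genes, BID lay slightly lower, and PMAIP1 separated the groups only after the GC correction. BID is cut by caspase 8 and carries the death receptor signal to mitochondria. It was at 61.4 and 59.8 CPM in AFF4_KD and 66.7 and 75.6 CPM in Ctrl, lower in both AFF4_KD libraries by a log2 fold change of -0.23 (95% interval -0.61 to 0.14; edgeR adjusted p = 0.569). Without Ctrl 2 it was -0.14. The GC-corrected log2 fold change of BID was -0.25 (edgeR adjusted p = 0.0435), with a value of -0.16 without Ctrl 2 and the call lost without AFF4_KD 1 (edgeR adjusted p = 0.191) or AFF4_KD 2 (0.274). PMAIP1 encodes NOXA, which binds MCL1 and hastens its destruction. It was at 50.7 and 53 CPM in AFF4_KD and 56.2 and 44.1 CPM in Ctrl, with the AFF4_KD libraries between the Ctrl libraries and a log2 fold change of 0.048 (95% interval -0.38 to 0.48; edgeR adjusted p = 0.94). Without Ctrl 1 it was 0.24 and without Ctrl 2 it was -0.12. GC-corrected, PMAIP1 was at 50.6 and 54.8 CPM in AFF4_KD and 48.5 and 50.3 CPM in Ctrl, so the AFF4_KD libraries were higher by a narrow margin. The log2 fold change of 0.094 had an interval of -0.073 to 0.26 and was not called (edgeR adjusted p = 0.36).

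The effectors BAX and BAK1 had positive log2 fold changes, as PMAIP1 did, and their groups overlapped in CPM. BAX had 964 and 990 counts in AFF4_KD and 646 and 851 in Ctrl, which is 53.3 and 58.8 CPM against 34.6 and 57 CPM. Ctrl 2 lay between the AFF4_KD libraries, so the groups overlapped, with a log2 fold change of 0.29 (95% interval -0.29 to 0.88; edgeR adjusted p = 0.672). After the GC correction BAX was at 55.1 and 57.4 CPM in AFF4_KD and 41.6 and 47.6 CPM in Ctrl, a log2 fold change of 0.33 (95% interval 0.14 to 0.52; edgeR adjusted p = 0.0213). That call was lost without AFF4_KD 1 (edgeR adjusted p = 0.0951) or AFF4_KD 2 (0.156). BAK1, which encodes the partly redundant effector BAK, was at 19.6 and 22.1 CPM in AFF4_KD and 15.3 and 21.2 CPM in Ctrl. Its groups overlapped, its log2 fold change was 0.19 (95% interval -0.33 to 0.71; edgeR adjusted p = 0.78), and it stayed uncalled after the GC correction at 0.21 (edgeR adjusted p = 0.122). Without Ctrl 1 the plain log2 fold changes were -0.022 for BAX and -0.026 for BAK1, so in that fit the direction of both effectors rests on Ctrl 1.

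Among the 7 pro-death genes the log2 fold change was negative for 4 of the 5 BH3-only genes (median of the 5, -0.44) and positive for PMAIP1 and both effectors (median of the 2 effectors, 0.24). A difference between these roles was not tested, and the sign of the effectors and of PMAIP1 was reversed in a plain fit without 1 of the Ctrl libraries (Ctrl 1 for BAX and BAK1, Ctrl 2 for PMAIP1). With the GC correction their log2 fold changes stayed positive whichever library was left out. The values ran from 0.24 to 0.44 for BAX, 0.16 to 0.25 for BAK1 and 0.036 to 0.15 for PMAIP1. The median over all 7 was -0.23, close to the -0.21 of the pro-survival genes. RNA from bulk cells does not tell a lower level per cell apart from fewer cells with a high level.

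**Figure D3:**
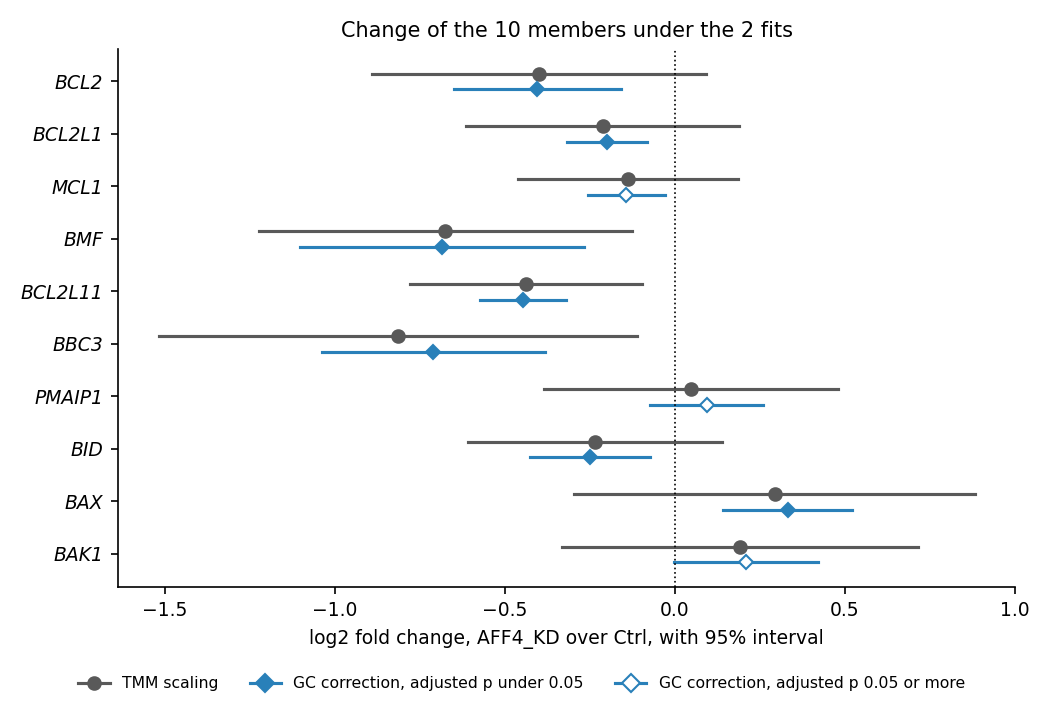
Log2 fold change of each member, AFF4_KD over Ctrl, with its 95% interval, in the plain TMM-scaled fit (grey circles) and after the GC correction (blue diamonds, filled where the adjusted p was under 0.05). The estimates of the 2 fits nearly coincide for each member, from -0.81 and -0.71 for BBC3 to 0.29 and 0.33 for BAX, and the GC-corrected intervals are narrower.

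A ratio of 2 genes within a library does not depend on how libraries are scaled. The log2 ratio of BAX to BCL2 counts was 1.38 and 1.56 in AFF4_KD 1 and 2, against 0.18 and 1.33 in Ctrl 1 and 2. Both AFF4_KD libraries were higher, Ctrl 2 came close to them and Ctrl 1 stood apart. The mean difference was 0.72 (two-sided exact permutation test, p = 0.333, the smallest that 2 against 2 libraries can give), and without Ctrl 1 it was 0.14. BAX is richer in GC than BCL2, the Ctrl libraries differ along GC, and this ratio is not corrected for that difference. In the plain fit the log2 fold changes were 0.29 for BAX and -0.40 for BCL2. With the GC correction they were 0.33 and -0.40.

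Levels of different genes were compared per length, as TPM (transcripts scaled to a common total) over the exonic length. BCL2L1 led with 434 ± 28 TPM in AFF4_KD and 488 ± 105 TPM in Ctrl, and MCL1 followed with 193 ± 3.07 and 206 ± 15.4 TPM (mean ± SD, n = 2 each). In AFF4_KD the next were PMAIP1 at 92.8 ± 3.18 and BAX at 86.6 ± 6.35 TPM, whose libraries overlapped, then BCL2L11 at 57.1 ± 1.17 and BID at 54.4 ± 0.816 TPM. In Ctrl PMAIP1 at 87.1 ± 14.2, BCL2L11 at 75.2 ± 4.83, BAX at 68.9 ± 24.4 and BID at 62.3 ± 6.06 TPM came in this order, but the libraries of PMAIP1 and BAX overlapped those of the genes beside them and the order is not fixed beyond that spread. BAK1 came next, at 37.7 ± 3.37 TPM in AFF4_KD and 32.1 ± 7.62 TPM in Ctrl, followed by BBC3, BCL2 and BMF. These last 3 stood at 10.5 ± 0.0154, 6.86 ± 0.121 and 2.74 ± 0.415 TPM in AFF4_KD and at 18.1 ± 7.53, 8.78 ± 1.75 and 4.27 ± 0.348 TPM in Ctrl, and in each group their libraries did not overlap.

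With the longest transcript as the length, BAX moved up to the third place in both groups, above PMAIP1, while the 2 highest and the 4 lowest members kept their places. By summed TPM, the pro-survival genes made up 64.9% and 65% of the 10 members in AFF4_KD and 66.1% and 67.6% in Ctrl. The BH3-only genes made up 22.7% and 21.9% in AFF4_KD and 25.8% and 21.5% in Ctrl. The effectors made up 12.4% and 13.1% in AFF4_KD and 8.08% and 10.9% in Ctrl, a share higher in both AFF4_KD libraries. Their summed level itself overlapped between the groups, at 117.4 and 131.1 TPM in AFF4_KD and 78.4 and 123.6 TPM in Ctrl. TPM were not corrected for GC content.

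**Figure D4:**
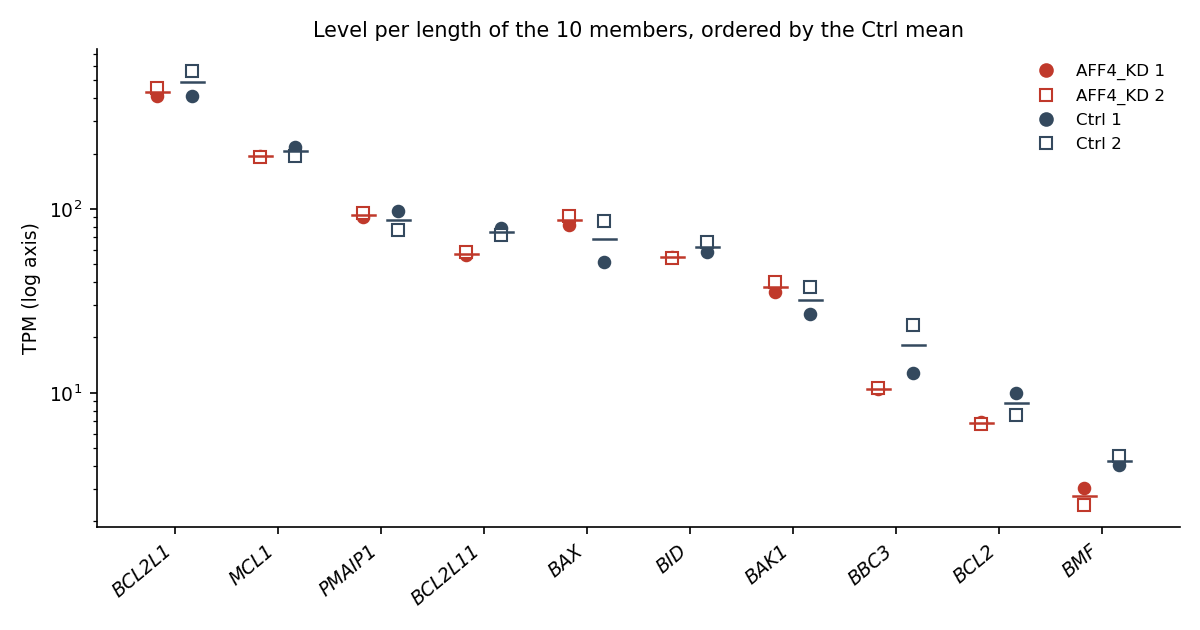
TPM of the 10 members in each library on a log axis, in the order of their Ctrl mean; AFF4_KD libraries are red, Ctrl libraries dark blue, circles replicate 1, squares replicate 2, bars the means of 2 libraries. BCL2L1 and MCL1 stand above the rest in every library and BMF is lowest.

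Promoter sequences are shown for the 3 BH3-only genes with the smallest unadjusted p and for BAX, the member with the largest positive log2 fold change, so that the sequence around their annotated starts can be compared. Each runs 5′ to 3′ from 250 bases before to 50 after a RefSeq gene start (GRCh38.p14), BCL2L11 on the plus strand at chr2:111120664-111120963, BMF on the minus strand at chr15:40108830-40109129, BBC3 on the minus strand at chr19:47232618-47232917 and BAX on the plus strand at chr19:48954625-48954924. Capitals mark matches on either strand to the GC box GGGCGG, the E-box CACGTG or the FOXO motif GTAAACA, which do not overlap each other here.
BCL2L11: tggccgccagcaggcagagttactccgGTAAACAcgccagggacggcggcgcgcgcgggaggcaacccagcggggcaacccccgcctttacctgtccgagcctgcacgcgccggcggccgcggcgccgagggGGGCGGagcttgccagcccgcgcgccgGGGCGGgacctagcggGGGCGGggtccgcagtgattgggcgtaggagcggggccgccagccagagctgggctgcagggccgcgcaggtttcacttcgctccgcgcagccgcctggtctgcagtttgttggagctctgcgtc
BMF: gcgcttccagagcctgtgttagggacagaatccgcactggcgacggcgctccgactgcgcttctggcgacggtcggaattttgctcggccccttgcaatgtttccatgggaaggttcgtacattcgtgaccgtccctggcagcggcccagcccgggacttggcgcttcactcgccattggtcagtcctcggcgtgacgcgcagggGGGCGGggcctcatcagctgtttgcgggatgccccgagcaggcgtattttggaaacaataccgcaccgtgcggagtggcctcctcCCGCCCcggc
BBC3: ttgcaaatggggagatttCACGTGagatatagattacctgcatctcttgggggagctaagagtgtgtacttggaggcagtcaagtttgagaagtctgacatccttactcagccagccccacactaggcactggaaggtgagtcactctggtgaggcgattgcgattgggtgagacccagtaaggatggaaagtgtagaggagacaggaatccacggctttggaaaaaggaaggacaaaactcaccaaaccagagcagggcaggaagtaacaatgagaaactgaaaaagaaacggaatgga
BAX: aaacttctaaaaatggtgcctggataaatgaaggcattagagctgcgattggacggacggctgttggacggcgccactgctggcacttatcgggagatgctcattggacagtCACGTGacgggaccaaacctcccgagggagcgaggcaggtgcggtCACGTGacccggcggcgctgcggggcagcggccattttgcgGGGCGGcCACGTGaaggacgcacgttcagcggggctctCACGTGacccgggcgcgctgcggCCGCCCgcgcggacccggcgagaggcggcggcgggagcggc

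The BCL2L11 promoter held 3 GC boxes and 1 match to the FOXO motif, which is found in 3.42% of 35116 annotated promoters of this length; FOXO factors are known activators of BIM. At least 3 GC boxes occur in 15.8% of promoters. BMF had 2 GC boxes, and the BBC3 window had none and 1 E-box, with 5 CpG dinucleotides where BCL2L11 had 39, BMF 31 and BAX 38 (the median promoter has 14). The BAX window held 4 E-boxes, and at least 4 occur in 5 of the 35116 promoters. No match to the TATA box TATAAA or the STAT motif TTCNNNGAA, which 11.5% and 7.66% of promoters hold, was found in these 4 windows. BMF has a further RefSeq start that is not shown, and BBC3 has 6 annotated transcripts, which need not share this start. These matches describe letters and say nothing of which factor acts in HEL cells.

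Exons of 5 members overlap those of a gene on the other strand, with which reads may be shared. BCL2L11 (chromosome 2, 111119378 to 111168447, plus strand) shares 727 exonic bases with the long non-coding RNA MIR4435-2HG, which had 3999 and 3604 counts in AFF4_KD and 4173 and 2865 in Ctrl and a log2 fold change of 0.067 (edgeR adjusted p = 0.897). BCL2L1 (chromosome 20, 31664452 to 31723989, minus strand) shares 1424 exonic bases with ABALON, which had at most 6 counts in a library. BAK1 shares 91 exonic bases with GGNBP1 and BBC3 shares 80 with MIR3190, which had at most 1 and 0 counts in a library. BMF, the scarcest member, shares 461 with BMF-AS1, which is not analysed here. On the same strand, BBC3 shares 76 exonic bases with MIR3191, and MCL1 shares 2 with ADAMTSL4-AS1. These had at most 6 and 4 counts in a library. The library protocol marks strand, but whether the counting used it is not stated in the sources used here. The remaining members lie on chromosomes 1 (MCL1), 6 (BAK1), 15 (BMF), 18 (BCL2 and PMAIP1), 19 (BBC3 and BAX) and 22 (BID).

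The other genes of the family and of the pathway around it gave 0 calls in the plain fit, in each of 7 lists. That fit called 0.295% of all tested genes lower and 0.346% higher, so lists this short can readily hold none. Of 15 further BCL2 family genes 9 were tested, 4 with a positive and 5 with a negative log2 fold change and a median of -0.10. BNIP3, a mitophagy receptor of the family's outer circle that hypoxia induces, had 165 ± 2.18 CPM in AFF4_KD and 236 ± 43 CPM in Ctrl (mean ± SD, n = 2 each), and its log2 fold change was -0.52 (unadjusted p = 0.0159, edgeR adjusted p = 0.209). Its close relative BNIP3L, which clears mitochondria from maturing red cells, had 213 ± 6.76 CPM in AFF4_KD and 178 ± 20.9 CPM in Ctrl and a log2 fold change of 0.26 (edgeR adjusted p = 0.47). The survival gene BCL2L2 had -0.29 and BCL2A1, at 1.34 ± 0.0531 CPM in AFF4_KD and 1.88 ± 0.672 CPM in Ctrl, had -0.50 (edgeR adjusted p = 0.506 for BCL2L2 and 0.572 for BCL2A1). The BH3-only gene BAD had 0.22 (edgeR adjusted p = 0.824). With the GC correction, 2 genes of this list were called higher and 2 lower, against 14.7% of all genes each way. BAD was then called higher, at a log2 fold change of 0.32 (edgeR adjusted p = 0.0291), unlike most BH3-only members. BNIP3L was also called higher (edgeR adjusted p = 0.0163) and BNIP3 lower (0.0211) in that fit. BOK, HRK and BCL2L14 were at 0 counts in all 4 libraries, and BIK, BCL2L10 and BCL2L15 had at most 4 in any.

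Downstream of the pore, 13 genes of the apoptosome and the caspases were tested, 6 positive and 7 negative, with a median of -0.042. APAF1, the scaffold that cytochrome c assembles into the apoptosome, had 58.2 ± 1.21 CPM in AFF4_KD and 82.3 ± 11.2 CPM in Ctrl, a log2 fold change of -0.50 (unadjusted p = 0.0193, edgeR adjusted p = 0.226). With the GC correction 2 genes of this list were called higher and 1, APAF1, lower (edgeR adjusted p = 0.00143). In that fit 14.7% of all genes were called each way. Of 6 tested inhibitors of apoptosis, BIRC5, the mitotic protein survivin, had -0.39 (unadjusted p = 0.0283, edgeR adjusted p = 0.268), and the list had a median of -0.11. The 11 tested genes of the death receptor arm ran from -0.43 to 0.28, with 0 at an unadjusted p under 0.05 and a median of 0.020. With the GC correction 2 inhibitors of apoptosis and 2 genes of the death receptor arm were called lower, and 0 of either list higher.

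Genes that act on the members themselves were tested as well. The 10 genes of MCL1 and BIM turnover and anchoring, which include the MCL1 ligase HUWE1, its deubiquitinase USP9X and the dynein light chains DYNLL1 and DYNLL2, ran from -0.28 to 0.26 with a median of -0.042. With the GC correction 0 of these 10 were called higher and 1 lower. Of 13 tested transcription factors known to control members, an unadjusted p under 0.05 in edgeR was reached by 2 that lay higher and 4 that lay lower. Of all tested genes 6.79% were higher and 8.19% lower at this limit, and the list was chosen with earlier results known. With the GC correction 2 of these factors were called higher and 5 lower, against 14.7% of all genes each way. STAT3, a mediator of survival signals from cytokine receptors, had 358 ± 16.6 CPM in AFF4_KD and 515 ± 14.4 CPM in Ctrl, a log2 fold change of -0.52 (unadjusted p = 0.00418, edgeR adjusted p = 0.12). DDIT3, which encodes the stress factor CHOP, an activator of BIM, had 19.2 ± 1.13 CPM in AFF4_KD and 30.4 ± 0.914 CPM in Ctrl, a log2 fold change of -0.66 (edgeR adjusted p = 0.148). FOXO1 had 1.38 ± 0.313 CPM in AFF4_KD and 2.58 ± 0.322 CPM in Ctrl (log2 fold change -0.90, edgeR adjusted p = 0.23), while its relative FOXO3, a known activator of BIM and PUMA, was far more abundant at 112 ± 2.51 CPM in AFF4_KD and 121 ± 0.612 CPM in Ctrl, with a log2 fold change of -0.12. Of the factors that lay higher, FOXO4 had 32.4 ± 0.296 CPM in AFF4_KD and 22.6 ± 3.8 CPM in Ctrl, a log2 fold change of 0.52 (edgeR adjusted p = 0.273, and 0.00313 with the GC correction). MYC, a driver of growth that also primes cells for death, had 550 ± 14.4 CPM in AFF4_KD and 437 ± 12.6 CPM in Ctrl, a log2 fold change of 0.33 (edgeR adjusted p = 0.275, and 0.0121 with the GC correction). The GC-corrected adjusted p in edgeR was 0.00062 for STAT3, 0.0017 for DDIT3 and 0.045 for FOXO1. FOXO3, FOXO4 and MYC are outside the rule for named genes and were added after their values were seen, as were HBG2, PF4, EPOR and GATA1 among the markers. The 8 tested channel, fission and fusion genes of the mitochondrial membranes ran from -0.24 to 0.20 with a median of 0.11. The lowest was VDAC2, which binds BAK. With the GC correction 2 of these 8 were called higher and 1, VDAC2, lower (edgeR adjusted p = 0.0113).

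**Figure D5:**
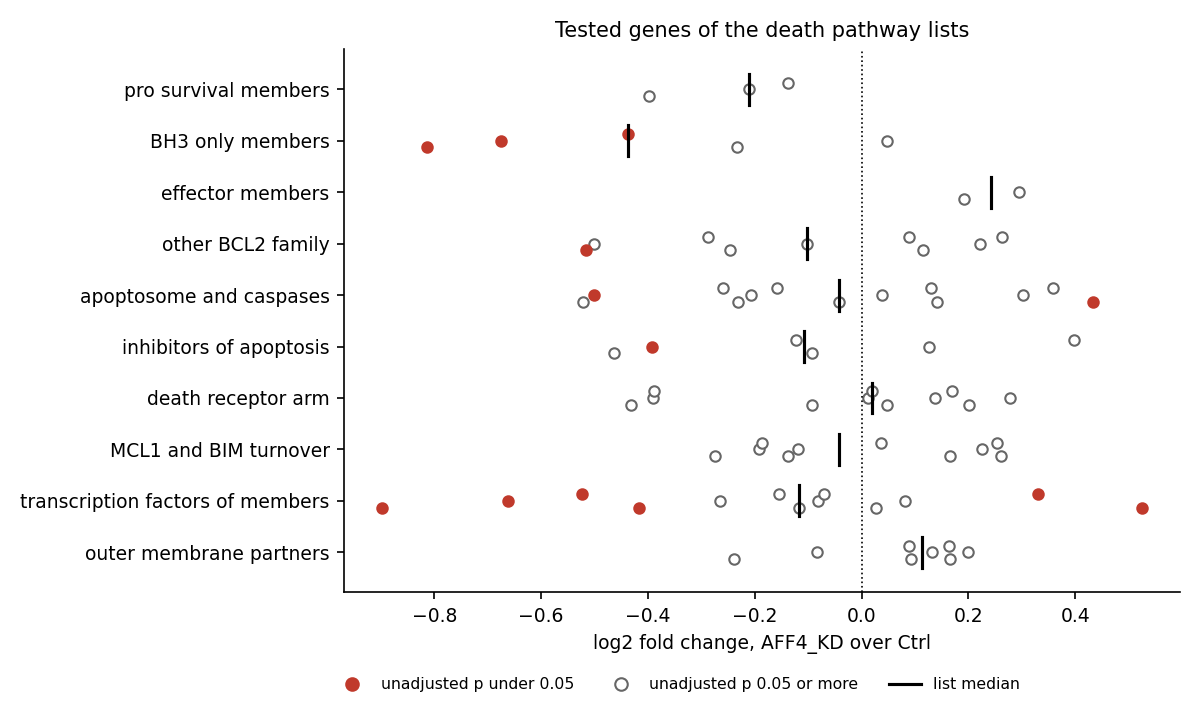
Log2 fold change, AFF4_KD over Ctrl, of every tested gene of the 3 member groups and of the 7 pathway lists; red points had an unadjusted p under 0.05 in edgeR, open points did not, and black bars are list medians. The BH3-only genes have the lowest median (-0.44) and the effectors the highest (0.24) of the 10 rows shown, and 0 genes passed after adjustment.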

How the data were processed

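Poly(A) RNA-seq of 4 HEL libraries was analysed from the authors' deposited table of whole-number read counts per gene symbol. Per the submitters' processing notes, fastp 0.13.1, HISAT2 2.1.0 and featureCounts 1.6.1 were used with hg38; which annotation and strand setting were used, and how multi-mapped reads were handled, is not stated in the sources used here. The 4 columns were matched to samples by name.

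Counts were fitted with edgeR 4.0.16 in R 4.3.3: filterByExpr (minimum count 10, minimum total 15), TMM scaling, quasi-likelihood fits to all 4 libraries with group alone in the model, and Benjamini-Hochberg adjustment over 13572 genes. Changes are relative to the other genes. SE was derived from the log2 fold change and the F statistic, and 95% intervals use the fit's 7.09 degrees of freedom. CPM use TMM-scaled library sizes. The GC correction enters a lowess trend (span 0.4) of log-CPM (prior count 2) on the GC content of the longest GENCODE v29 transcript as an offset for each library, over the 13217 genes (97.4%) with a value; a change of expression that follows GC content would be removed with it. TPM used GENCODE v29 exonic lengths. Promoters came from RefSeq (GRCh38.p14), and in the set used every member except MCL1 had an entry.

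The genes named are the 10 members, AFF4 and, in each pathway list, called genes or else up to 3 with an unadjusted p under 0.05; of the BCL2 family any. Not every gene taken by this rule is reported here. Members and lists were chosen with earlier results of these data known. Alternatives were other scalings and filters, DESeq2 1.42.0, limma-voom (limma 3.58.1), the replicate block, the GC correction and each library left out; leaving out libraries with the GC correction was added after the data were seen. A lone library in a group was taken to vary as the other group does. The fits were tested on simulated data.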

Additional observations from a re-analysis of the deposited data

How the results depend on the processing

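The 10 log2 fold changes kept their sign under every scaling, filter, tool, block and GC correction tried with all 4 libraries. Reversals came from leaving out a Ctrl library in the plain fit. Without Ctrl 2, BCL2L1 had 0.015 and PMAIP1 -0.12, and without Ctrl 1, BAX had -0.022 and BAK1 -0.026. With the GC correction no member changed sign whichever library was left out. In the plain fit with a library left out, BCL2L1 ranged from -0.41 to 0.015, PMAIP1 from -0.12 to 0.24, BAX from -0.022 to 0.69 and BAK1 from -0.026 to 0.44. BCL2L11 ranged from -0.51 to -0.36 and BMF from -0.82 to -0.53.

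Calls depended on the processing. Members called higher and lower numbered 1 and 6 with the GC correction, and 1 and 7 with the replicate block and the GC correction together, against 0 and 0 in the plain fit. With the replicate block alone 0 were higher and 1, BBC3, was lower. The deviations of same-numbered libraries correlated at 0.256 over genes, but with 2 pairs this does not show that numbers pair the libraries. With 1 library left out, between 0 and 2 members were higher and between 0 and 5 lower. With the GC correction as well, 0 were higher without AFF4_KD 1 or AFF4_KD 2 and 1 without Ctrl 1 or Ctrl 2, and 3, 1, 7 and 7 were lower without AFF4_KD 1, AFF4_KD 2, Ctrl 1 and Ctrl 2. Of all tested genes, 47 were higher and 40 lower in the plain fit. These counts were 328 and 406 with no filter, 1 and 4 with at least 5 CPM in 2 libraries, 185 and 212 in DESeq2, 408 and 480 with the replicate block, 1942 and 1937 with the GC correction, and 2659 and 2603 with both. Leaving out 1 library gave 35 to 3407 higher and 11 to 3315 lower, and with the GC correction 733, 763, 3122 and 3216 higher and 806, 859, 2838 and 3178 lower without AFF4_KD 1, AFF4_KD 2, Ctrl 1 and Ctrl 2. The many calls came from fits without a Ctrl library, in which the spread comes from the AFF4_KD pair alone.

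The median of the pro-survival genes ranged from -0.27 to -0.13 and that of the pro-death genes from -0.33 to -0.14 over all alternatives. The BAX to BCL2 difference ranged from 0.14 to 1.29 with 1 library left out. Depth limits BMF most, at 56 to 106 counts a library.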
